A study of Mus musculus with 8 samples.

Results

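The genes Slc17a8, Kcnk1, Mfsd2a, Radil and Zfp9 were followed in mouse liver after adenoviral delivery of a short hairpin RNA against Dnajb9 or against Rictor. They were chosen by their measured fold changes, since each had been seen to change in opposite directions with the 2 hairpins, and they are 5 of 24062 gene entries in the count tables. All 5 passed the filter on low counts, as did 13767 entries in all. Because both contrasts chose these genes, their fold changes below are a description and carry no test.

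All groups were lean C57BL/6 mice on free access to food, given 0.1 OD of an adenovirus. Livers were taken 1 week on, once food had been removed for 6 h. The groups were shDnajb9 (Dnajb9 Knockdown, 3 months of age), lacZ1 (wild type, 3 months, the control of shDnajb9), shRictor (Rictor Knockdown, 4 months) and lacZ2 (wild type, 4 months, the control of shRictor). Each group had 2 libraries of ribosomal RNA-depleted total RNA, with 6426164 to 11383532 counts assigned to genes. The labels do not say whether the libraries of a group were separate animals, which cells the virus reached, or what sequence the lacZ virus carried, so standard errors and p-values measure only the spread between these libraries. The 2 experiments differed in age and in control group, and these cannot be told apart from the hairpins when the contrasts are set against each other.

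Dnajb9 encodes ERdj4, a co-chaperone of BiP in the endoplasmic reticulum, and Rictor encodes the subunit that defines mTOR complex 2, a kinase complex that phosphorylates AKT downstream of insulin. The 5 genes have separate functions. Slc17a8 encodes VGLUT3, which loads glutamate into synaptic vesicles and is best known from neurons and inner hair cells. Kcnk1 encodes TWIK1, a potassium channel subunit of the tandem-pore family. Mfsd2a encodes a sodium-dependent importer of lysophosphatidylcholine, which carries docosahexaenoic acid into the brain and is induced by fasting in mouse liver. Radil encodes an effector of the small GTPase Rap1 in integrin-dependent adhesion, and Zfp9 encodes a zinc finger protein.

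The share of counts without a unique alignment was 41.3% and 41.97% in shDnajb9 against 22.88% and 24.88% in lacZ1, and 32.69% and 26.72% in shRictor against 24.59% and 24.23% in lacZ2. Its part in the levels below was not tested. On the leading principal component, with 63.3% of the variance, shDnajb9 replicate 1 and lacZ2 replicate 1 lay at the ends, with scores of -74.99 and 61.32. Without both of these libraries, a choice made after seeing the data, the log2 fold changes in shDnajb9 and shRictor were -1.70 and 1.09 for Slc17a8, -1.12 and 0.83 for Mfsd2a, -2.86 and 1.12 for Radil, -1.96 and 2.11 for Kcnk1, and 1.35 and -1.42 for Zfp9. Of the 5, Slc17a8 alone would then have been chosen by a call in both contrasts.

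In 4 of these genes, Slc17a8, Kcnk1, Mfsd2a and Radil, the level was lower in shDnajb9 than in lacZ1 and higher in shRictor than in lacZ2. Zfp9 had the reverse pattern. In all 5 the libraries of each hairpin group lay outside the range of their own control libraries, in opposite directions, as they did for 3.73% of the genes tested. Slc17a8, Mfsd2a, Radil and Zfp9, but not Kcnk1, also lay on opposite sides of all 4 lacZ libraries, a pattern held by 1.07% of the genes tested.

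Promoter sequences are shown for Slc17a8, Mfsd2a and Radil because these 3 had similar profiles over the 8 libraries. That likeness follows in part from how the genes were chosen. Windows were taken from RefSeq on GRCm38.p6, and 6 windows matched 4 of the 5 genes. Each line gives the 250 bases before a transcript start, read 5′ to 3′ on the minus strand, which is that of all 3 genes. They lie at chr10:89621250-89621499 (Slc17a8, first start), chr10:89599816-89600065 (Slc17a8, second start), chr4:122961189-122961438 (Mfsd2a) and chr5:142551099-142551348 (Radil, first start). Capitals mark matches to the motifs searched.
Slc17a8, first start: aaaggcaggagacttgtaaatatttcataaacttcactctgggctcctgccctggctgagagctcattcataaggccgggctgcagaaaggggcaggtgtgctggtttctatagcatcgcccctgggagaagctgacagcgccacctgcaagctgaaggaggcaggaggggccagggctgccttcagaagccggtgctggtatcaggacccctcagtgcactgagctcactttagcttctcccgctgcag
Slc17a8, second start: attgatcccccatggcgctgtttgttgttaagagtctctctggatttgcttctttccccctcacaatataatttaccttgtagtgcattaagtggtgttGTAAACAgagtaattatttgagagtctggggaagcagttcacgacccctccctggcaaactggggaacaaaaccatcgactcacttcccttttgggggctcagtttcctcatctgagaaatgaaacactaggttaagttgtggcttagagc
Mfsd2a: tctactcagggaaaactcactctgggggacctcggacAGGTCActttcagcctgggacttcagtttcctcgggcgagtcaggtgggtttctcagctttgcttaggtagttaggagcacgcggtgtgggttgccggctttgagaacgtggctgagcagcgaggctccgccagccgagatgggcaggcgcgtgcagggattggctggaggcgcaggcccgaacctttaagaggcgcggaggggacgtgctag
Radil, first start: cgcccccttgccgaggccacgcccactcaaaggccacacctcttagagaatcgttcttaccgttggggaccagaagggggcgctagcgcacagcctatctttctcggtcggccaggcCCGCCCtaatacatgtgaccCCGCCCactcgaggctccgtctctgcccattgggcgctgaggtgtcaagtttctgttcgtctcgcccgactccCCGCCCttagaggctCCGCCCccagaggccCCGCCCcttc

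The search covered 12 short motifs on both strands of windows that also held the 50 bases after each start. The only match in Mfsd2a was the nuclear receptor half-site AGGTCA at positions -213 to -208, present in 16.3% of all 32851 windows. The first Radil window held 5 GC boxes (GGGCGG, 35.7% of windows), none of which overlapped another motif, and its second window held a CRE half-site (TGACG, 20.8%) at -181 to -177. The second Slc17a8 window held the FoxO motif TGTTTAC, found in 3.65% of windows, at -151 to -145 and at 23 to 29. No match to any of the 12 was found in the first Slc17a8 window or the Kcnk1 window. The bases at the start in the Kcnk1 window were not found in an annotated Kcnk1 transcript, so that start is uncertain. The full CRE (TGACGTCA, 1.79%), E-box (CACGTG, 7.15%), UPRE (TGACGTGG, 0.676%), amino acid response (TGATGNAAN, 3.95%), SREBP (TCACNCCAC, 1.24%), STAT5 (TTCNNNGAA, 8.3%), TATA box (TATAAA, 13.6%) and HNF4 (CAAAGTCCA, 0.475%) motifs were in none of the 6 windows. No motif occurred in windows of more than 1 of these genes. CRE half-sites lie within CRE and UPRE motifs. A match is a description of these letters and not a binding site.

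Levels are given in CPM, gene counts divided by library size and set to a common total, after TMM scaling, which corrects library sizes for a few highly abundant transcripts. Slc17a8 (ENSMUSG00000019935.16, chromosome 10, 89574020 to 89621253, minus strand, protein coding) stood at 9.64 and 10.2 CPM in shDnajb9, against 31.0 and 35.1 CPM in lacZ1. It stood at 79.3 and 88.4 CPM in shRictor, against 31.8 and 39.5 CPM in lacZ2. The lacZ groups overlapped, both shDnajb9 libraries lay under every control library, and both shRictor libraries lay above every control library. On the log2 scale the fitted change was -1.73 (SE 0.244) in shDnajb9 against lacZ1, which is 3.32-fold lower. In shRictor against lacZ2 it was 1.23 (SE 0.224), which is 2.35-fold higher. With 46 and 89 raw counts in shDnajb9 and at least 273 in every other library, this gene rested on more reads than Kcnk1, Radil or Zfp9.

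**Figure D1:**
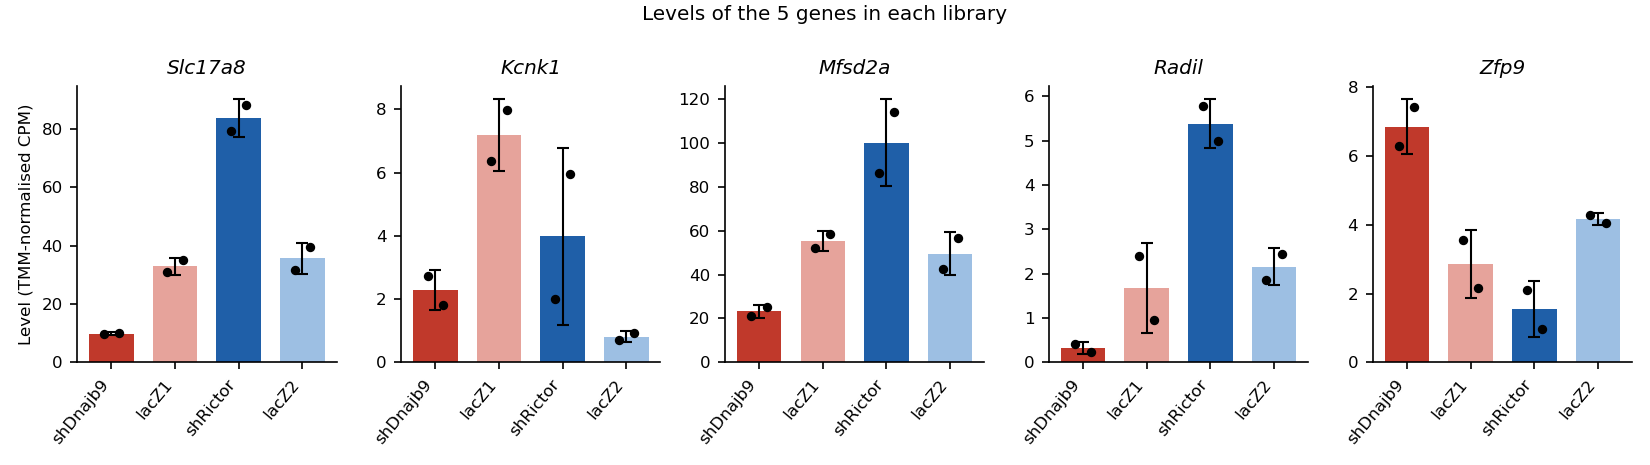
Levels of the 5 genes in TMM-normalised CPM (linear axes from 0), with 1 panel per gene. Bars are the means of 2 libraries, error bars are the SD, and points are the libraries. Slc17a8 and Mfsd2a have their lowest bars in shDnajb9 and their highest in shRictor, and the Kcnk1 bars of the control groups differ more than those of the hairpin groups.

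Mfsd2a (ENSMUSG00000028655.11, chromosome 4, 122946850 to 122961188, minus strand, protein coding) likewise had its lowest levels in shDnajb9 and its highest in shRictor. It stood at 21.2 and 25.3 CPM in shDnajb9, against 52.0 and 58.5 CPM in lacZ1. It stood at 86.1 and 114 CPM in shRictor, against 42.6 and 56.4 CPM in lacZ2. The control groups overlapped here too, and neither hairpin group overlapped any control library. The change was -1.24 (SE 0.253) in shDnajb9, or 2.37-fold lower than lacZ1, and 1.02 (SE 0.245) in shRictor, or 2.02-fold higher than lacZ2. Per kilobase of exon, Mfsd2a had the highest mean level of the 5 in each group, with 10.4 CPM per kb in shDnajb9, 24.6 in lacZ1, 44.4 in shRictor and 22.0 in lacZ2. The same quantity for Slc17a8 was 2.10, 6.99, 17.8 and 7.54 CPM per kb in those groups. The 50-base stretches of Mfsd2a transcripts had no match in another annotated gene, and 1.29% of those of Slc17a8 did.

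Radil (ENSMUSG00000029576.17, chromosome 5, 142484839 to 142551098, minus strand, protein coding) was a low transcript. Its raw counts were 2 and 2 in shDnajb9, against 27 and 8 in lacZ1. They were 49 and 51 in shRictor, against 16 and 29 in lacZ2. In CPM these were 0.419 and 0.228 in shDnajb9 against 2.39 and 0.954 in lacZ1, and 5.77 and 4.99 in shRictor against 1.86 and 2.45 in lacZ2. The control groups overlapped and each hairpin group lay clear of all control libraries. The change was -2.48 (SE 0.699) in shDnajb9 and 1.30 (SE 0.419) in shRictor. From the summed counts of 4 in shDnajb9 and 35 in lacZ1, the level was 6.03-fold lower, with an exact 95% interval of 2.16 to 23.4 that covers counting error only. Without lacZ1 replicate 1, which held 27 of those 35 counts, the log2 change was -1.65.

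Zfp9 (ENSMUSG00000072623.6, chromosome 6, 118461950 to 118479320, minus strand, protein coding) went the other way. It stood at 6.29 and 7.42 CPM in shDnajb9 (30 and 65 raw counts), against 3.55 and 2.15 CPM in lacZ1 (40 and 18 counts). It stood at 2.12 and 0.978 CPM in shRictor (18 and 10 counts), against 4.30 and 4.06 CPM in lacZ2 (37 and 48 counts). Here the control groups did not overlap, and the highest shRictor library lay only just under the lowest lacZ1 library at 2.15 CPM. The change was 1.25 (SE 0.386) in shDnajb9, or 2.38-fold higher than lacZ1. In shRictor it was -1.45 (SE 0.423), or 2.74-fold lower than lacZ2. It was -2.07 without shRictor replicate 1 and -0.97 without shRictor replicate 2.

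Kcnk1 (ENSMUSG00000033998.9, chromosome 8, 125995170 to 126030685, plus strand, protein coding) differed from the other 4 in its control levels. It stood at 2.73 and 1.83 CPM in shDnajb9 (13 and 16 raw counts), against 6.38 and 7.99 CPM in lacZ1 (72 and 67 counts). It stood at 2.00 and 5.97 CPM in shRictor (17 and 61 counts), against 0.698 and 0.931 CPM in lacZ2 (6 and 11 counts). The 2 hairpin groups overlapped each other, while lacZ1 lay above and lacZ2 below every hairpin library. The change was -1.70 (SE 0.481) in shDnajb9 against lacZ1 and 2.27 (SE 0.535) in shRictor against lacZ2. Both shRictor libraries were higher than lacZ2 but lower than lacZ1, so the direction with the Rictor hairpin depended on which control was used. Without shRictor replicate 2, which held 61 of the 78 shRictor counts, the change was 1.26. An antisense gene, Gm45875, overlaps 8.01% of the Kcnk1 exon bases, and the strand setting of the counting is not given in the sources used here, so reads of the 2 cannot be told apart.

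The control groups set the remaining values in context. Between lacZ2 and lacZ1 the log2 difference was -3.09 (SE 0.516) for Kcnk1, 0.53 (SE 0.387) for Zfp9, 0.33 (SE 0.460) for Radil, 0.11 (SE 0.224) for Slc17a8 and -0.16 (SE 0.244) for Mfsd2a. These libraries also enter the contrasts that chose the genes, so the values are given without a test. Over all genes, edgeR called 0 of 13767 between lacZ2 and lacZ1, with 169 at an unadjusted p under 0.05, and DESeq2 called 1 and limma-voom 0. With no filter on low counts edgeR called 13. With 2 libraries a group, few calls do not show that the control groups were alike. Set directly against each other across the experiments, shRictor was higher than shDnajb9 by 3.08 for Slc17a8, 2.10 for Mfsd2a, 4.11 for Radil and 0.88 for Kcnk1. For Zfp9 the same log2 difference was -2.18. Age differs between these groups as well as the hairpin.

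Among all tested genes a change in opposite directions was rare beside a change in the same direction. By edgeR's quasi-likelihood test at a Benjamini-Hochberg adjusted p under 0.05, 1524 genes were called in both contrasts, and 1516 of them had the same sign. The 8 with opposite signs, 0.0581% of the genes tested, included the 5 followed here, Oas1g and Ifit2. With total count only as the scaling, 7 genes had opposite signs, of which 2 were among these 8. The 8 make up 0.241% of the genes called in shDnajb9 and 0.319% of those called in shRictor. With no call required, 27.6% of tested genes had opposite signs. In single directions, 12.6% of genes fell and 11.6% rose in shDnajb9, and 7.31% rose and 10.9% fell in shRictor. These were 1597 rises and 1728 falls in shDnajb9 and 1006 rises and 1502 falls in shRictor, against 610 and 3354, and 436 and 2810, with total count only. Since the rule used these contrasts, nothing is read from the 4 genes that fell and the 1 that rose in shDnajb9.

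**Figure D2:**
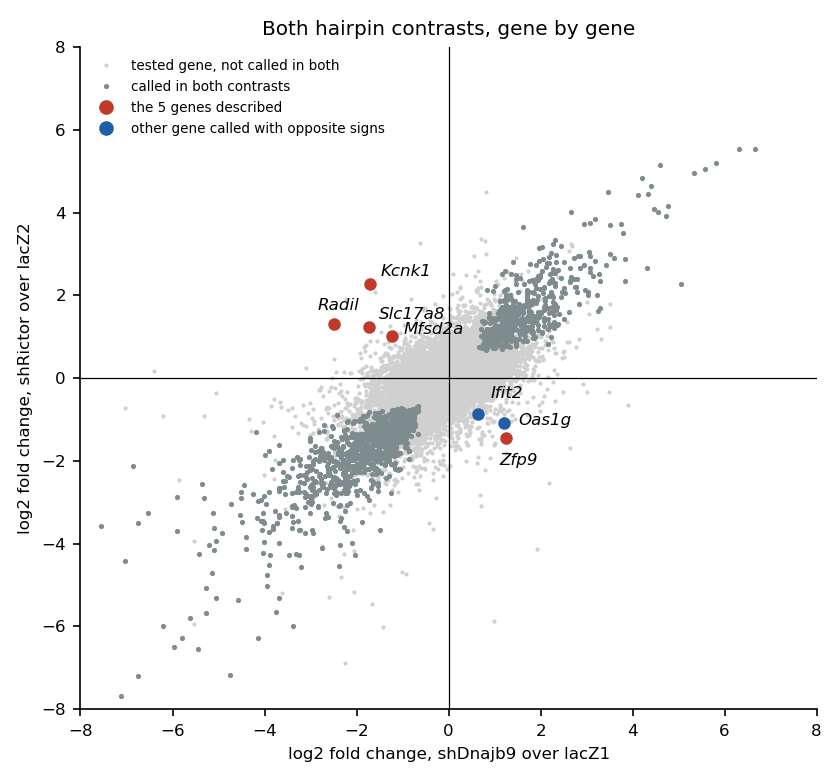
Fitted log2 fold change of each tested gene in shDnajb9 over lacZ1 (horizontal) and in shRictor over lacZ2 (vertical). Dark grey points are called in both contrasts, red points are the 5 genes described and blue points are Oas1g and Ifit2, and 6 genes lie beyond the plotted range of 8. Nearly all dark grey points fall in the lower left and upper right quadrants, where both contrasts share a sign.

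Oas1g and Ifit2 shared the direction of Zfp9. Oas1g, an oligoadenylate synthetase of the interferon response, stood at 32.3 and 28.0 CPM in shDnajb9, against 13.1 and 13.0 CPM in lacZ1. It stood at 6.59 and 10.3 CPM in shRictor, against 23.6 and 12.4 CPM in lacZ2. The hairpin groups lay on opposite sides of all control libraries, but 45.7% of the Oas1g sequence is shared with other genes, mainly Oas1a, so its values are uncertain. Ifit2, an interferon-induced protein, stood at 39.4 and 42.8 CPM in shDnajb9 against 25.5 and 26.8 CPM in lacZ1. It stood at 17.5 and 19.5 CPM in shRictor against 33.6 and 34.6 CPM in lacZ2. With 1 library left out at a time, Oas1g missed the threshold in shDnajb9 in 3 of 8 fits and in shRictor in 2, and Ifit2 in 8 and 4.

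To place the threshold, and not as a test, the larger of the 2 adjusted p-values that define an opposite call was 0.0478 for Radil, just inside, and 0.0501 for Oas1a and 0.0502 for H2-Q2, just outside. Oas1a had log2 changes of 0.98 in shDnajb9 and -0.83 in shRictor, and 57.6% of its sequence is shared. H2-Q2, a class I histocompatibility gene, had changes of 2.19 and -2.53, with 5.45 and 2.74 CPM in shDnajb9 against 1.06 and 0.596 CPM in lacZ1. In shRictor it had 0.235 and 0.0978 CPM (2 and 1 raw counts) against 1.28 and 0.762 CPM in lacZ2 (11 and 9 counts). Of the H2-Q2 sequence 16.1% is shared with other genes, mainly H2-Q1.

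The direction of all 5 genes held in each of the 179 values computed under other normalisations, filters, tools, designs and left-out libraries. The genes were chosen for these directions in the same libraries, so this outcome was close to fixed by the choice. Which of the 5 would be chosen by a call in both contrasts depended on the setting, which describes the choice and supports none of them. Total-count scaling would have chosen Slc17a8 and Kcnk1, and DESeq2 all but Radil. With 1 library left out, between 1 and 4 of the 5 would have been chosen, and Slc17a8 alone without shRictor replicate 2 or lacZ2 replicate 1. With total count only, all genes shifted by a median of -0.464 in shDnajb9 and -0.424 in shRictor. On that scale Mfsd2a was at -1.65 and 0.62, and Slc17a8 at -2.15 and 0.84.

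**Figure D3:**
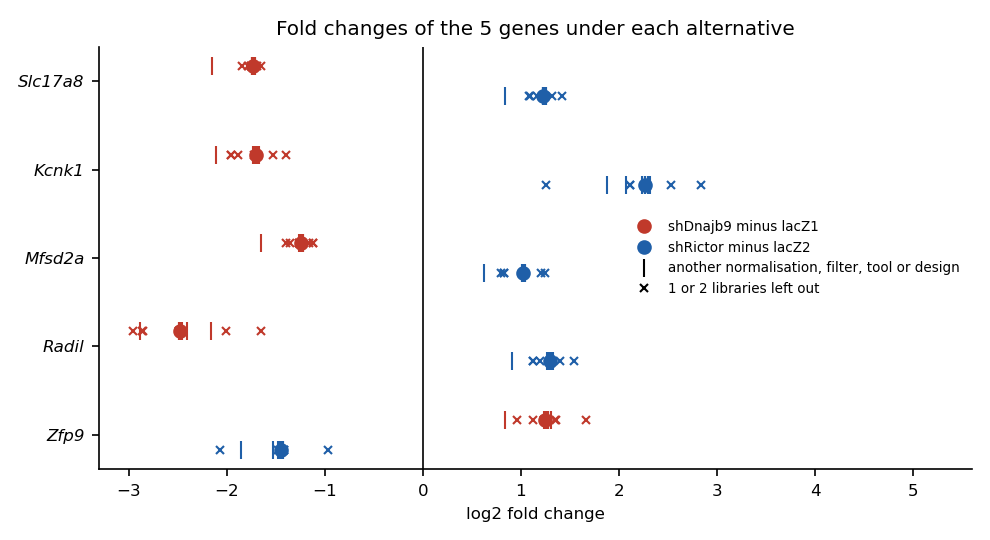
Fitted log2 fold changes of the 5 genes in shDnajb9 minus lacZ1 (red) and shRictor minus lacZ2 (blue). Circles are the values reported, vertical ticks are other normalisations, filters, tools and designs, and crosses leave out 1 or 2 libraries. No value crosses 0, which the choice of the genes made likely. The widest spread is that of Kcnk1 in shRictor, between 1.26 and 2.84.

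Slc17a8 and Mfsd2a had the most similar profiles of the 5. The rule chose genes by their changes between these groups, so likeness among members with the same directions follows in part from the choice. Likeness was measured as Pearson's r of log2 CPM over the 8 libraries, among 11853 genes whose average log2 CPM reached 1, and is a description of points that share the same libraries and groups. For Slc17a8 the closest genes were Mfsd2a (r = 0.984, rho = 0.952), Jmjd4 (r = 0.953) and Foxp2 (r = 0.952). For Mfsd2a they were Slc17a8, Parp6 (r = 0.958) and the pseudogene Olfr856-ps1 (r = 0.952). For Radil they were Foxp2 (r = 0.954), a forkhead transcription factor, Fzd1 (r = 0.951), a Wnt receptor, and Slc17a8 (r = 0.949).

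These genes were alike in the shape of their profiles and not in the size of their changes. The rank correlation rho was lower than r for all but Parp6. With Slc17a8 it was 0.786 for Jmjd4 and 0.905 for Foxp2, and with Mfsd2a 1.0 for Parp6 and 0.81 for Olfr856-ps1. With Radil it was 0.952 for Foxp2, 0.929 for Fzd1 and 0.857 for Slc17a8. Foxp2 stood at 6.29 and 6.96 CPM in shDnajb9 against 9.93 and 8.70 CPM in lacZ1. In shRictor it stood at 12.1 and 12.5 CPM against 9.65 and 11.7 CPM in lacZ2. Its log2 changes of -0.49 and 0.20 did not pass the edgeR test (adjusted p = 0.190 and 0.619). Fzd1 fell in shDnajb9 by 0.78 on the log2 scale (SE 0.241, adjusted p = 0.0325, edgeR), and its change of 0.44 in shRictor had an adjusted p of 0.208. The Fzd1 call was lost without either shDnajb9 or either lacZ1 library, at adjusted p from 0.0621 to 0.218. Jmjd4, Parp6 and Olfr856-ps1 were called in neither contrast.

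Genes close to Kcnk1 were less alike, among them Magi3 (r = 0.835) and Tubg1 (r = 0.823), and its r with Slc17a8 was 0.169. For Zfp9 the closest were Slfn3 (r = 0.959), the small Cajal body RNA gene Scarna13 (r = 0.951) and Cpne8 (r = 0.925), none of which was called in either contrast. Zfp9 ran against Slc17a8 (r = -0.893) and Mfsd2a (r = -0.935), which were chosen for the reverse directions.

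**Figure D4:**
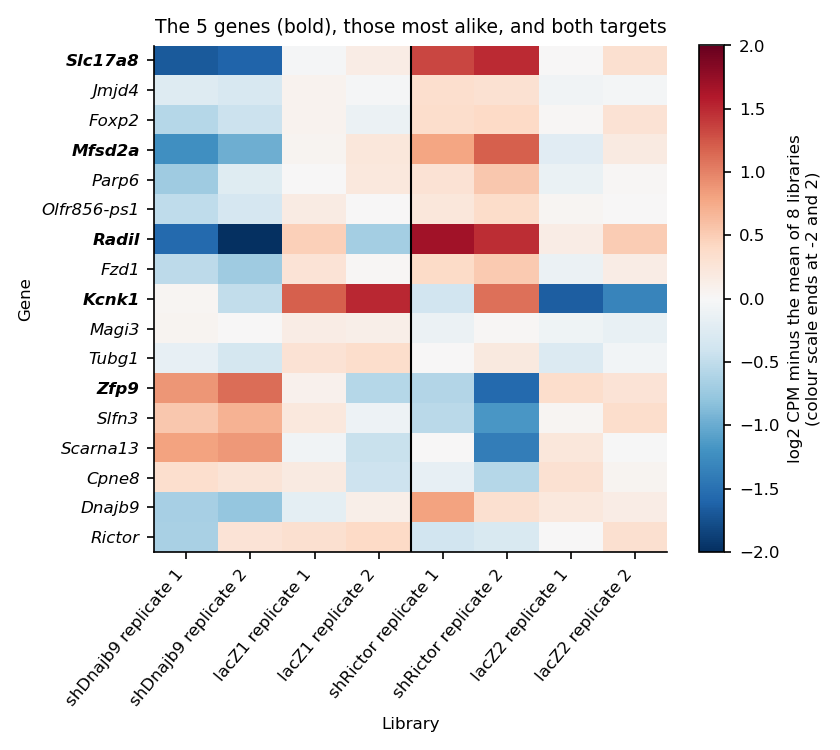
Log2 CPM of each gene minus its mean over the 8 libraries, with the 5 genes in bold, each followed by genes most like it that no earlier row shows, and Dnajb9 and Rictor last. Blue is below and red above the mean, and the lowest value, -2.06, lies just past the end of the scale. Slc17a8, Mfsd2a and Radil are blue in shDnajb9 and red in shRictor, Zfp9 is the reverse, and Kcnk1 is red in lacZ1 and blue in lacZ2.

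The transcripts that the hairpins target did not pass the test in their own contrast. Dnajb9 stood at 22.0 and 20.3 CPM in shDnajb9 against 30.6 and 38.0 CPM in lacZ1 (log2 change -0.70, edgeR adjusted p = 0.056). In shRictor it stood at 61.1 and 43.8 CPM against 40.4 and 38.8 CPM in lacZ2 (0.41, adjusted p = 0.271). The means of its groups thus had the order of those of Slc17a8, and r between Dnajb9 and Slc17a8 was 0.935, a pair singled out after the values were seen. Rictor stood at 40.1 and 42.0 CPM in shRictor against 52.3 and 65.2 CPM in lacZ2 (-0.52, adjusted p = 0.231). In shDnajb9 it stood at 33.3 and 63.4 CPM against 65.4 and 68.8 CPM in lacZ1 (-0.46, adjusted p = 0.239), and r between Rictor and Slc17a8 was -0.0529.

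Relatives of the 5 genes were counted by edgeR's calls, beside medians over all genes of -0.05 in shDnajb9 and -0.02 in shRictor. Over all tested genes 11.6% rose and 12.6% fell in shDnajb9, and 7.31% rose and 10.9% fell in shRictor, and the counts below are to be read against these shares. The 5 genes themselves were left out of the 10 lists. None of the other list genes was called in opposite directions. Over all tested genes only 0.0581% were, so this says little about the lists. Without the 2 outlying libraries, calls in shDnajb9 numbered 2 for the MFSD list, 4 for the lysophospholipid list, 4 for the Rap1 list, 13 for the Zfp list and 0 for the co-repressors, and in shRictor 1, 6, 3, 11 and 0, with 4 for the clock list. Of the SLC17 transporters, 6 of 8 were tested, 2 rose in shDnajb9 and 3 rose in shRictor, and none fell (median log2 change 0.64 and 0.77). Slc17a2 rose in both, to 156 and 140 CPM in shDnajb9 against 58.3 and 64.8 CPM in lacZ1 (adjusted p = 0.00958), and in shRictor to 201 and 147 CPM against 45.6 and 79.8 CPM in lacZ2 (adjusted p = 0.00467). Without lacZ1 replicate 1 no SLC17 gene passed in shDnajb9 and without lacZ1 replicate 2 only 1 did, and without lacZ2 replicate 1 none passed in shRictor. Of 14 tested genes of glutamate transport and metabolism, 3 rose and 1 fell in shDnajb9, and 4 rose and 1 fell in shRictor (median 0.38 and 0.47). Without lacZ1 replicate 1, 0 rose and 1 fell in shDnajb9. In shRictor 2 rose and 1 fell without either lacZ1 library, either shRictor library or lacZ2 replicate 1. Total-count scaling gave 1 rise and 2 falls in shDnajb9 and 2 rises and 2 falls in shRictor. Slc1a1, a glutamate transporter of the plasma membrane with 31% of its sequence shared, fell with both hairpins, with log2 changes of -3.31 in shDnajb9 and -4.25 in shRictor (edgeR adjusted p = 0.000777 and 0.000222).

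Among the tandem-pore potassium channels 4 of 13 were tested besides Kcnk1 (median 0.01 in shDnajb9 and 0.21 in shRictor). Kcnk10 rose in shDnajb9, to 4.82 and 5.48 CPM against 0.532 and 0.477 CPM in lacZ1 (log2 change 3.32, SE 0.48, edgeR adjusted p = 0.000568). Its change in shRictor was 0.93 (adjusted p = 0.153), and the difference between the hairpins was not tested. Kcnk13 had a log2 change of -1.10 in shRictor (adjusted p = 0.0473), a call lost without any one of 6 libraries, namely both of lacZ1, shRictor and lacZ2. No channel fell in shRictor with the replicate block, limma-voom, DESeq2 or the 4 libraries alone, and 1 rose by each of the last 2. In shRictor 1 channel rose and 1 fell without either shDnajb9 library, with RLE scaling and with no filter. In shDnajb9 1 rose and 1 fell without shDnajb9 replicate 2 and under total-count scaling.

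Of 14 tested MFSD transporters, the family of Mfsd2a, 1 rose and 3 fell in each contrast (median -0.21 in shDnajb9 and -0.18 in shRictor), but by DESeq2 1 rose and 1 fell in shRictor. In shDnajb9 none rose and 2 fell without shDnajb9 replicate 1, and 1 fell without lacZ1 replicate 1. In shRictor none rose and 2 fell without either lacZ1 library, 1 fell without shRictor replicate 2 or lacZ2 replicate 2, and none passed without shRictor replicate 1 or lacZ2 replicate 1. No gene rose under total-count scaling, and 3 fell in shDnajb9 and 4 in shRictor. Of 24 genes of lysophospholipid and polyunsaturated fatty acid handling, 5 rose and 6 fell in shDnajb9, and 8 rose and 4 fell in shRictor (median 0.19 and 0.56). These counts were 1 and 1 without lacZ1 replicate 1, 2 and 1 without shDnajb9 replicate 1 and 2 and 4 without lacZ1 replicate 2. In shRictor they were 3 and 0 without shRictor replicate 1, 2 and 0 without shRictor replicate 2, and 0 and 2 without lacZ2 replicate 1. Under total-count scaling they were 2 and 7 in shDnajb9 and 5 and 5 in shRictor. Pemt, which methylates phosphatidylethanolamine to phosphatidylcholine, rose by 1.92 in shDnajb9 (SE 0.339, adjusted p = 0.002, edgeR). Pemt also rose in shRictor, by 1.5 (edgeR adjusted p = 0.00838), a call lost without shRictor replicate 1 or lacZ2 replicate 1. Pla2g6, a phospholipase, fell by 1.30 (adjusted p = 0.00346) in shDnajb9 and was at -0.29 (adjusted p = 0.466) in shRictor. Both of these shDnajb9 calls held without any one library.

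Of 23 fasting-induced and PPAR alpha target genes, 2 rose and 7 fell in shDnajb9 and 2 rose and 5 fell in shRictor (median -0.60 and -0.02). In shDnajb9 these counts were 1 and 4 without shDnajb9 replicate 2 and 0 and 3 without lacZ1 replicate 2, and in shRictor they were 1 and 3 without shRictor replicate 1. Under total-count scaling they were 1 and 11 in shDnajb9 and 1 and 7 in shRictor. Fgf21, a hormone that the fasted liver secretes, stood at 0.210 and 0.343 CPM in shDnajb9 against 3.1 and 2.74 CPM in lacZ1 (edgeR adjusted p = 0.00389). In shRictor it stood at 1.29 and 0.489 CPM against 7.09 and 4.82 CPM in lacZ2 (adjusted p = 0.00163). Acot2, a mitochondrial acyl-CoA thioesterase with 27.7% of its sequence shared with Acot1 and other genes, fell with both hairpins, with log2 changes of -3.26 in shDnajb9 and -2.63 in shRictor (edgeR adjusted p = 3.78e-05 and 0.000104). Fgf21 and Acot2 thus fell with both hairpins, Fgf21 on 1 and 3 raw counts in shDnajb9. The median of the list in shRictor was that of all tested genes, -0.02. Mfsd2a was 2.02-fold higher in shRictor than in lacZ2, but it was chosen for that rise, so no contrast with the list is read.

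In the list of Rap1 and integrin adhesion genes, set beside Radil, 1 of 28 rose and 9 fell in shDnajb9, and 1 rose and 6 fell in shRictor (median -0.58 and -0.12). In shDnajb9 the counts were 1 and 3 without shDnajb9 replicate 1 and 0 and 2 without lacZ1 replicate 1. In shRictor 0 rose without shRictor replicate 1, shRictor replicate 2 or lacZ2 replicate 1, and 1, 3 and 1 fell. No gene rose under total-count scaling, and 14 fell in shDnajb9 and 7 in shRictor. Kif14, a mitotic kinesin that binds Radil, stood at 0.629 and 1.37 CPM in shDnajb9 against 11.4 and 11.9 CPM in lacZ1 (edgeR adjusted p = 0.000133). In shRictor it stood at 1.53 and 2.45 CPM against 9.30 and 9.06 CPM in lacZ2 (adjusted p = 0.000912). Itga5, the alpha subunit of a fibronectin receptor, fell by 1.32 in shDnajb9 (adjusted p = 0.00255), a call that held without any one library. Its log2 change in shRictor was -1.07 (edgeR adjusted p = 0.00806), a call lost without shRictor replicate 1 or lacZ2 replicate 1.

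Of 296 tested genes named Zfp with a number, 8 rose and 23 fell in shDnajb9, and 4 rose and 17 fell in shRictor (median -0.05 and -0.14). With no filter on low counts 13 rose and 34 fell in shDnajb9. In shDnajb9 these were 2 and 7 without shDnajb9 replicate 1, 0 and 8 without lacZ1 replicate 1 and 2 and 18 without lacZ1 replicate 2. In shRictor they were 2 and 9 without shRictor replicate 1, 0 and 3 without shRictor replicate 2 and 0 and 4 without lacZ2 replicate 1. Under total-count scaling they were 1 and 49 in shDnajb9 and 0 and 43 in shRictor. Zfp37 fell with both hairpins, with log2 changes of -2.23 in shDnajb9 and -2.40 in shRictor (edgeR adjusted p = 0.00158 and 0.00134). Of the 10 co-repressors that act with KRAB zinc finger proteins, Atf7ip fell in shDnajb9 (-1.10, adjusted p = 0.0186, lost without shDnajb9 replicate 1 or lacZ1 replicate 1), and 0 were called in shRictor by any fit that left out a library. The list had medians of -0.25 and -0.08. In shDnajb9 5 of its genes fell under total-count scaling, 2 fell with the filter of 2 CPM, and 1 rose and 2 fell by DESeq2.

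Core clock genes were counted because food withdrawal and the time of day act on many liver transcripts, and the labels give no time of killing. Of 19, 4 rose in shDnajb9 and 7 rose in shRictor, and none fell (median 0.29 and 0.80). The counts were 2 without lacZ1 replicate 1 and 2 without lacZ1 replicate 2 in shDnajb9, and 3 without shRictor replicate 2 and 3 without lacZ2 replicate 1 in shRictor, but 11 without either shDnajb9 library. With total count only 2 rose and 1 fell in shDnajb9 and 4 rose in shRictor. Dbp, an output factor of the clock, rose by 1.35 in shDnajb9 and by 1.60 in shRictor (edgeR adjusted p = 0.00204 and 0.000737).

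Markers of liver cell types were measured beside these genes, and in bulk tissue fewer cells of a type and less RNA per cell cannot be told apart. Hepatocyte markers, 10 of 10 present, summed to 82500 and 64300 CPM in shDnajb9 against 40700 and 55200 CPM in lacZ1, and in shRictor to 61700 and 68700 CPM against 22800 and 43100 CPM in lacZ2. Of them 5 rose in shDnajb9 and 4 in shRictor, and none fell. Cholangiocyte markers summed to 36.5 and 65.9 CPM in shDnajb9 against 102 and 104 CPM in lacZ1, and in shRictor to 52.6 and 75.2 CPM against 74.3 and 120 CPM in lacZ2. Of the 9, 6 were tested, 2 fell in shDnajb9 and 1 in shRictor. Neuron and Schwann cell markers, included because of Slc17a8, summed to 4.91 to 8.84 CPM over all libraries, with Snap25 and Th at 0 in all 8, and 1 of 5 tested fell in each contrast. The summed markers of hepatocytes were higher with both hairpins, and their part in the levels of the 5 genes was not tested.

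Endothelial markers summed to 689 and 869 CPM in shDnajb9 against 799 and 730 CPM in lacZ1, which overlap, and to 749 and 754 CPM in shRictor against 672 and 718 CPM in lacZ2, which do not, and 1 of 10 rose in shDnajb9. Stellate and fibroblast markers summed to 355 and 496 CPM in shDnajb9 against 653 and 605 CPM in lacZ1, and in shRictor to 481 and 427 CPM against 582 and 586 CPM in lacZ2, and 3 of 10 fell in shDnajb9 and 1 in shRictor. Kupffer cell and macrophage markers summed to 1320 and 1450 CPM in shDnajb9 against 1440 and 1680 CPM in lacZ1, and in shRictor to 848 and 1020 CPM against 1470 and 1610 CPM in lacZ2, and 2 of 8 tested fell in shDnajb9 and 3 in shRictor. T and NK cell markers were lower in each hairpin group than in its control group, at 27.0 and 35.5 CPM in shDnajb9 against 50.4 and 42.5 CPM in lacZ1, and in shRictor at 29.3 and 29.1 CPM against 36.2 and 65.1 CPM in lacZ2, and 1 of 9 tested fell in shDnajb9 and 2 in shRictor. B cell markers ran from 5.50 to 8.49 CPM over all libraries. Neutrophil markers were at 1.05 and 1.03 CPM in shDnajb9 against 25.7 and 6.32 CPM in lacZ1, and in shRictor at 1.77 and 4.79 CPM against 14.4 and 4.06 CPM in lacZ2, and 4 of 5 tested fell in shDnajb9 and 1 in shRictor. Pancreatic acinar markers stayed between 0.169 and 12.5 CPM, with Cpa1 and Pnlip at 0 in shDnajb9, shRictor and lacZ2. No one of these 10 sums was lower in shDnajb9 than lacZ1 and higher in shRictor than lacZ2 without overlap, nor the reverse. Only 3.73% of the genes tested had either pattern, so its absence from 10 sums is unremarkable. The part of these cell types in the levels of the 5 genes was not tested.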

How the data were processed

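Raw counts per gene symbol were deposited by the authors, with 1 table per library from mouse liver. They were made with cutadapt and HTSeq on genome build mm10, per the submitters' processing notes. The aligner, versions, annotation and strand setting are not given in the sources used here. Between 48.42% and 63.74% of HTSeq counts were in classes not assigned to a gene and were left out of library sizes. Library totals ran from 6426164 to 11383532 gene counts. Replicate libraries of a group varied beyond counting noise (chi-square per degree of freedom 19.36 to 55.37).

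The members and lists were chosen with earlier results of these data known. Counts were fitted in R 4.3.3 with edgeR 4.0.16: filterByExpr with a minimum count of 10 (13767 genes kept), TMM scaling, 4 group means over all 8 libraries, and robust quasi-likelihood F tests with Benjamini-Hochberg adjustment across all tested genes. A gene was called at an adjusted p under 0.05. The common biological coefficient of variation was 0.209. SE is the log2 fold change over the square root of F, and n is 2 libraries a group. The procedure was run on simulated counts, with known changes placed only in genes above a count limit and the same dispersion for every gene. Changes in genes with few counts were therefore not covered. Alternatives were RLE and total-count scaling, other filters, non-robust moderation, DESeq2 1.42.0, limma-voom (limma 3.58.1), 4 libraries alone, a replicate block and leaving out libraries. Named genes were the 5 members, both targets, other genes called with opposite signs and the 2 nearest the threshold, the 3 genes most like each member (log2 CPM with a prior count of 2), and up to 4 called genes per list. A few genes meeting it are not reported here. Clone-based names were left out, and Gm45875 was named for its overlap. Positions, overlaps and shared 50-base stretches came from GENCODE M21 (GRCm38), where 57 of 57 named symbols matched, and a gene was called uncertain from 20% shared.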

Additional observations from a re-analysis of the deposited data

Results flagged for a closer look

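The 5 genes, Oas1g and Ifit2 passed the threshold in both contrasts with opposite signs. For them every library of one hairpin group lay to one side of its controls, and every library of the other to the opposite side. Of all genes tested 3.73% had such a separation, which in part restates how these genes were chosen. The log2 change in shRictor minus that in shDnajb9 was 2.97 for Slc17a8, 2.26 for Mfsd2a, 3.97 for Kcnk1 and 3.78 for Radil. It was -2.71 for Zfp9, -2.28 for Oas1g and -1.53 for Ifit2. These differences were not tested, since the genes were chosen on both contrasts. In data outside the gene counts, the share of reads without a unique alignment was at least 41.3% in both shDnajb9 libraries and at least 26.72% in both shRictor libraries, above each lacZ library.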

How the results depend on the processing

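All 179 values of the 5 genes kept their direction, which the choice of the genes made likely. The cause of the shifts below was not tested. With total count only, shDnajb9 and shRictor changes were -2.15 and 0.84 for Slc17a8, -1.65 and 0.62 for Mfsd2a, and -2.11 in shDnajb9 for Kcnk1, 0.91 in shRictor for Radil and 0.84 in shDnajb9 for Zfp9. Genes with opposite calls numbered 8, but 32 with no filter on low counts, 21 at an adjusted p under 0.1, and 1 without the 2 outlying libraries, where calls in shDnajb9 were 1675.

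Leaving out 1 library at a time gave 1 (without lacZ2 replicate 1) to 34 (without shDnajb9 replicate 2) opposite calls, 998 to 4142 calls in shDnajb9 and 1053 to 3009 in shRictor. A group left with 1 library is then assumed to vary like the others. The log2 changes ran from -1.84 to -1.65 in shDnajb9 and 1.08 to 1.42 in shRictor for Slc17a8, -1.96 to -1.39 and 1.26 to 2.84 for Kcnk1, and -2.95 to -1.65 and 1.12 to 1.54 for Radil. For Zfp9 they ran from 0.96 to 1.66 and from -2.07 to -0.97.

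Replicate numbers did not pair the libraries by any label. Deviations of same-numbered libraries correlated at -0.3 between shDnajb9 and lacZ1 and -0.0321 between shRictor and lacZ2. The replicate block gave 3289 and 2470 calls, in place of 3325 and 2508, and 9 opposite calls. Crossing the lacZ1 numbers, chosen after seeing the data, gave 4330 and 3102 calls. In the fit of 4 libraries alone, the shDnajb9 change of Radil could not be fitted, as the gene missed the count filter. Depth limits Radil most, with 4 counts in shDnajb9.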
